A study of Mus musculus with 6 samples.

Results

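The albumin, apolipoprotein and plasma carrier genes are the main products that the hepatocyte exports into blood. They were taken here as 10 genes: Alb, Ttr, Apoa1, Apoa2, Apob, Apoc3, Trf, Ahsg, Rbp4 and Gc. A probe counted for a gene when its annotated sequence accession was a RefSeq transcript of that gene. By that rule 9 of the 10 genes had a probe, out of 13968 genes named on the array, and no probe matched Apob. Ahsg had 2 probes, so there were 10 probes in all. Each is given here with its signal on every array. None of the 9 genes differed between Src-transgenic and wild-type livers at an adjusted p under 0.05. After quantile normalization of the arrays the largest difference was that of Trf, which was 1.54-fold higher in Src-transgenic livers (unadjusted p = 0.039, limma). Its log2 change was 0.63, and after 2 corrections for uneven regions of the arrays it was -0.03 and 0.39. With each array scaled by its median instead, Trf was at 0.08, the smallest difference of the 9, and the largest was that of Apoa2 at -0.77 (unadjusted p = 0.019, limma).

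The arrays compared livers of 3 Src-transgenic C57BL/6 mice (replicates 1, 3 and 4) with livers of 3 wild-type C57BL/6 mice (replicates 1, 2 and 4), all aged 14 months. The transgene is a human c-Src, a tyrosine kinase and proto-oncogene, placed behind the mouse metallothionein promoter, which zinc induces. The labels do not say whether zinc was given to the sampled mice or whether tumour tissue was sampled. Transgenic sample 2 and wild-type sample 3 gave weak signals, and the study left them out.

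Albumin and its fellow plasma proteins are made in hepatocytes, secreted, and carry fatty acids, lipids, hormones, iron and vitamins between organs. Their genes are switched on in liver by a small set of transcription factors, among them the forkhead (Foxa) and C/EBP families. Several of them, such as Alb, Ttr, Apoa1, Ahsg and Rbp4, are known as negative acute phase genes, whose liver output drops in inflammation while that of the positive acute phase genes climbs.

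Before the results, 2 facts of the arrays bear on them. Array medians of the probe signal were 94.8, 111 and 117 for the Src-transgenic arrays, against 53.8, 77.0 and 93.4 for the wild-type arrays, so array brightness differed 2.18-fold and moved with the groups. On the array of Src-transgenic replicate 4, 3 of 4 Y-linked genes read no higher than background, namely Uty, Ddx3y and Eif2s3y, while they were above it on the other arrays. Results without that array are given where they bear on a member. The Src probe read 870, 437 and 277 in Src-transgenic livers, against 60.8, 127 and 104 in wild-type livers, with a log2 change of 1.79 ± 0.51 (SE; limma adjusted p = 0.69). Whether that mouse probe detects the human transcript was not tested. The metallothionein genes Mt1 and Mt2, which share the transgene's type of promoter, had log2 changes of 3.71 ± 0.53 and 4.88 ± 0.44 (SE; limma adjusted p = 0.69 and 0.35). Of 12 tested hepatocyte markers, all 12 lay above background on all 6 arrays, with a mean log2 level of 12.76 to 13.22 in Src-transgenic and 12.96 to 13.12 in wild-type livers. In whole liver, fewer cells of a type and less RNA per cell cannot be told apart.

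Upstream sequence was examined for the members, since their probes shared a place at the top of the signal range. Their choice as main products of the hepatocyte may by itself bring that place. RefSeq promoter windows of build GRCm38.p6 were at hand for 7 of the 10 genes. Ttr, Apoc3 and Trf were not among them. The 150 bases before the annotated start were searched on both strands for 3 motifs: TGTTTNC for forkhead factors, TTGCNNAA for C/EBP and TATAAA for the TATA box. Below stand Alb and Ahsg, which held both forkhead and C/EBP letters, and Apoa1, which held forkhead letters alone. Capitals mark the motif matches, and each sequence runs 5′ to 3′ up to the base before the start. The windows are chr5:90460720-90460869 on the plus strand for Alb, chr9:46228480-46228629 on the plus strand for Apoa1 and chr16:22891865-22892014 on the plus strand for Ahsg.
Alb: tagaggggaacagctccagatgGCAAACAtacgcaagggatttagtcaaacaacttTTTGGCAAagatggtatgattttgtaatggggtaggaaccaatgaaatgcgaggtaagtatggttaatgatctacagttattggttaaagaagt
Apoa1: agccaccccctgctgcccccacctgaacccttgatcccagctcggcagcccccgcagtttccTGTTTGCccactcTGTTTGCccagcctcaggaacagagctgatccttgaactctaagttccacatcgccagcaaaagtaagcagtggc
Ahsg: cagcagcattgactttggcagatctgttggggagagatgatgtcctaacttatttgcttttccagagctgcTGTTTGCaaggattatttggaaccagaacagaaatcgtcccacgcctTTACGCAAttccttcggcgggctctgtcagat

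Apoa1 carried the forkhead letters in 2 places, from 88 to 82 and from 75 to 69 bases before its start. The forkhead letters stood in windows of 5 of the 7 members (Alb, Apoa1, Apoa2, Apob and Ahsg), against 10.3% of all 32851 promoter windows of that length. The C/EBP letters also stood in 5 of them (Alb, Apoa2, Apob, Ahsg and Rbp4), against 5.46% of all windows. The TATA box stood in Apob and Rbp4 and in 7.57% of all windows. Apoa2 and Rbp4 each had 2 start sites, and a match in either counted. The member counts are thus of genes, whereas the percentages are of single windows, so the 2 are not in like units. A match describes letters in the window and is no evidence of binding.

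All 10 member probes were among the 42 brightest of 34967 mouse probes on every array, and 8, 9 and 8 of them stood among the 20 brightest on the Src-transgenic arrays, against 5, 7 and 8 on the wild-type arrays. Brightness belongs to a probe as well as to its transcript, so no member's level is set against another's. Every member probe lay above background on all 6 arrays. Their deposited signals ran between 16401 and 49914 on a linear scale.

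**Figure D1:**
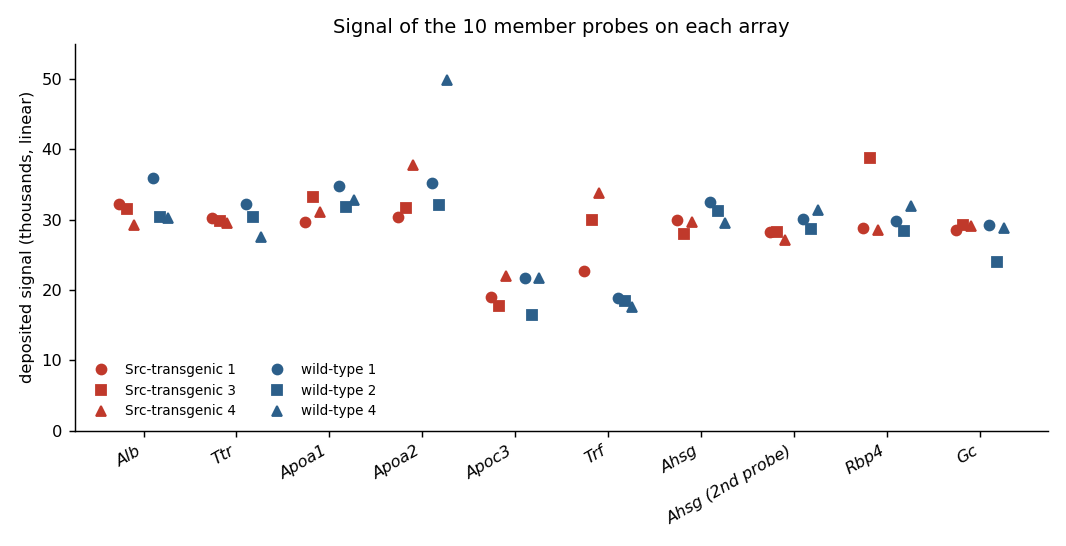
Deposited signal (linear scale) of the 10 member probes, with 1 point for each array and Src-transgenic arrays left of wild-type arrays. For Trf the 3 Src-transgenic points (22662 to 33855) all lie above the 3 wild-type points (17646 to 18851), and for the brighter probe of every other gene the groups overlap.

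Alb encodes albumin, the most abundant plasma protein and the carrier of fatty acids, bilirubin and many drugs. Its signal was 32261, 31464 and 29245 in Src-transgenic livers, against 35937, 30398 and 30294 in wild-type livers. The groups overlapped, and the brightest of the 6 values was only 1.23 times the dimmest. After quantile normalization the level was 15.01 ± 0.13 in Src-transgenic and 14.91 ± 0.01 in wild-type livers (log2, SD, n = 3 each), a log2 change of 0.10 ± 0.18 (SE, 95% interval -0.33 to 0.54; limma adjusted p = 0.88). Alb ranked 8, 10 and 9 on the wild-type arrays, and such close ranks get nearly equal normalized values. The wild-type SD of 0.01 is thus narrower than the spread of the deposited signals.

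Ttr encodes transthyretin, which carries thyroxine and holds retinol-binding protein in plasma. Its signal was 30317, 29879 and 29504 in Src-transgenic livers, against 32213, 30397 and 27479 in wild-type livers. The signals overlapped as deposited, whereas after normalization all 3 Src-transgenic values stood above all 3 wild-type values. That log2 change was 0.10 ± 0.17 (SE, 95% interval -0.32 to 0.51; limma adjusted p = 0.88). The exact two-sided permutation test gave p = 0.1, the smallest that 3 against 3 arrays allow.

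Apoa1 and Apoa2 encode the main proteins of high-density lipoprotein, and Apoa1 activates the enzyme that esterifies plasma cholesterol. The Apoa1 signal was 29717, 33251 and 31079 in Src-transgenic livers, against 34838, 31821 and 32869 in wild-type livers. The Apoa2 signal was 30434, 31683 and 37790 in Src-transgenic livers, against 35253, 32058 and 49914 in wild-type livers. For both genes the groups overlapped, and replicate 4 gave the highest Apoa2 signal in each group. The log2 change was -0.03 ± 0.18 for Apoa1 (SE, 95% interval -0.47 to 0.42; limma adjusted p = 0.97). It was 0.02 ± 0.22 for Apoa2 (SE, 95% interval -0.52 to 0.55; limma adjusted p = 0.99).

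Apoc3 encodes an inhibitor of triglyceride clearance carried on triglyceride-rich particles. Its signal was 19043, 17724 and 22032 in Src-transgenic livers, against 21704, 16401 and 21703 in wild-type livers, with the lowest and next highest values both in wild-type livers. Its log2 change was -0.13 ± 0.18 (SE, 95% interval -0.57 to 0.32; limma adjusted p = 0.85). Apob, the structural protein of very-low-density and low-density lipoprotein, was not measured by a matched probe and has no value here.

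Trf encodes transferrin, the plasma carrier of iron. Its signal was 22662, 29973 and 33855 in Src-transgenic livers, against 18851, 18504 and 17646 in wild-type livers. All 3 Src-transgenic values stood above all 3 wild-type values, and the wild-type values lay close together. After normalization the level was 14.85 ± 0.35 in Src-transgenic and 14.22 ± 0.12 in wild-type livers (log2, SD, n = 3 each). The log2 change was 0.63 ± 0.24 (SE, 95% interval 0.04 to 1.21), or 1.54-fold, with limma's unadjusted p = 0.039 and adjusted p = 0.69. The exact two-sided permutation test gave p = 0.1, again the smallest possible. Leaving out 1 array at a time gave 0.48 to 0.82. Among those fits limma's unadjusted p stayed under 0.05 only without Src-transgenic replicate 1 (unadjusted p = 0.017, adjusted p = 0.76). Without Src-transgenic replicate 4 the change was 0.48 (unadjusted p = 0.11).

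The Trf spot lay in uneven regions of 2 arrays. Such a patch was called where the spots up to 4 rows and columns away had a median deviation beyond 0.5 log2 units in either direction. Around Trf those neighbours deviated by -0.14, 0.75 and 0.27 on the Src-transgenic arrays, against -0.25, -0.29 and -0.54 on the wild-type arrays, while Trf itself deviated by -0.07, 0.39 and 0.62 against -0.34, -0.19 and -0.41. Neighbours and probe were thus lowest on the wild-type arrays and, on Src-transgenic replicates 3 and 4, highest. Subtracting the neighbours left a Trf log2 change of -0.03 (unadjusted p = 0.91, limma). The correction was repeated with the 37 neighbours of a mean log2 signal of 9 or more within 8 rows and columns, a choice made after seeing the data. It left 0.39 (unadjusted p = 0.067, limma). How much of the Trf difference belongs to the liver was not tested.

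**Figure D2:**
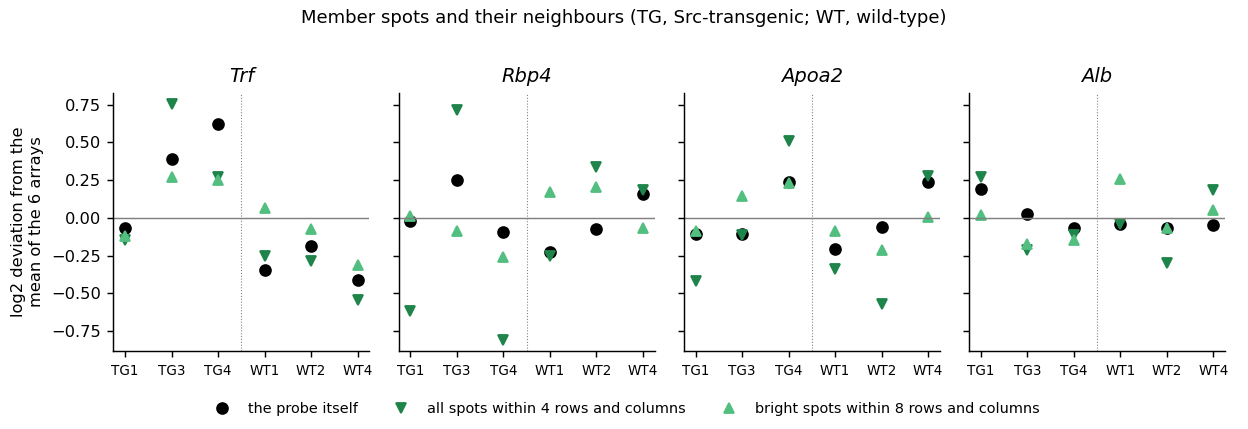
Deviation from the 6-array mean (log2) of the Trf, Rbp4, Apoa2 and Alb probes and of the spots around them, with Src-transgenic arrays left of wild-type arrays. Around Trf the neighbours run from 0.75 on Src-transgenic replicate 3 to -0.54 on wild-type replicate 4, in the same direction as the probe on those arrays.

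Ahsg encodes fetuin-A, a mineral-binding glycoprotein that inhibits ectopic calcification, and its 2 probes gave nearly equal values. The brighter probe read 29980, 28014 and 29621 in Src-transgenic livers, against 32548, 31300 and 29468 in wild-type livers. The other read 28230, 28219 and 27143 in Src-transgenic livers, against 30071, 28620 and 31351 in wild-type livers. Before scaling, the groups overlapped for the brighter probe and were apart for the other, lower in Src-transgenic livers. After normalization both overlapped, with log2 changes of 0.00 ± 0.17 (SE, 95% interval -0.42 to 0.43; limma adjusted p = 1.00) and -0.07 ± 0.19 (SE, 95% interval -0.53 to 0.38).

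Rbp4 encodes retinol-binding protein, which carries vitamin A out of the liver together with transthyretin. Its signal was 28770, 38753 and 28572 in Src-transgenic livers, against 29753, 28465 and 31984 in wild-type livers. Src-transgenic replicate 3 was the high value, and the other 5 arrays overlapped. The log2 change was 0.09 ± 0.21 (SE, 95% interval -0.42 to 0.60; limma adjusted p = 0.91), and without Src-transgenic replicate 3 it was -0.02. Rbp4 lay in patches on 3 arrays, with neighbours at -0.62, 0.72 and -0.81 on the Src-transgenic arrays and at -0.25, 0.34 and 0.18 on the wild-type arrays. Subtracting these neighbours left 0.42, with an unadjusted p above 0.05. The bright neighbours, within 8 rows and columns, differed from these. They deviated by 0.01, -0.09 and -0.26 on the Src-transgenic arrays, against 0.17, 0.21 and -0.07 on the wild-type arrays. Subtracting the bright neighbours left 0.30 (unadjusted p = 0.22, limma).

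Gc encodes the vitamin D-binding protein, which also scavenges actin and is a close relative of albumin. Its signal was 28599, 29297 and 29136 in Src-transgenic livers, against 29189, 24038 and 28860 in wild-type livers. Wild-type replicate 2 was the low value, and the rest lay close together. The log2 change was 0.14 ± 0.18 (SE, 95% interval -0.29 to 0.56; limma adjusted p = 0.83), with overlap at equal values of 14.84.

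Over the 9 measured members, 7 log2 changes were above 0 and 2 below, with a median of 0.09. Of all 34175 features tested, 51.7% were above 0 and 48.3% below, with a median of 0.02. Of the 39 features with a mean unscaled log2 signal of 14 or more, members among them, 27 were above 0 and 12 below, with a median of 0.05. At an unadjusted p under 0.05, 1 member (Trf) was higher in Src-transgenic livers, against 4.37% of all features higher, and 0 were lower, against 2.72% (7.09% in either direction). At an adjusted p under 0.05 there were 0 members and 0.0% of all features, although 1493 features were higher and 931 lower at an unadjusted p under 0.05 in limma. The groups stood apart for 2 members, Trf and Ttr, both higher in Src-transgenic livers, against 10.1% of all features, and for 0 members lower, against 5.9%. Among the 39 bright features, 6 stood apart higher and 1 lower. Without Src-transgenic replicate 4 the members ran from -0.15 (Apoc3) to 0.48 (Trf), with a median of 0.10 and 5 of 9 above 0. In this quantile-normalized fit the standard errors of the members were 0.17 to 0.24 on the log2 scale, and for 7 of the 9 the 95% interval lay wholly within 0.58 either way, which is a 1.49-fold difference. Trf and Rbp4 were the exceptions. Under median scaling the log2 changes of Alb, Apoa1, Apoa2 and Ahsg lay beyond that bound, at -0.61, -0.64, -0.77 and -0.65. A p above the threshold does not show equal levels.

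**Figure D3:**
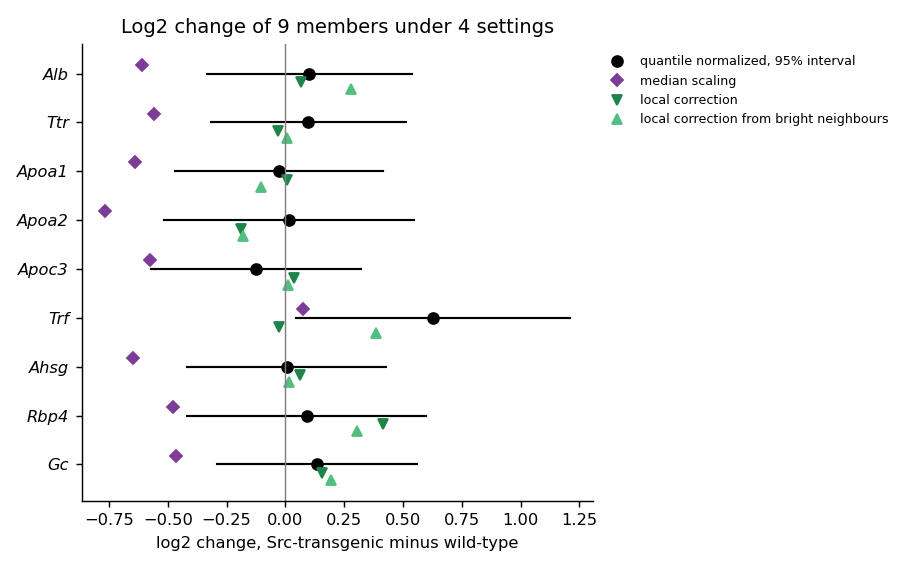
Log2 change of the 9 measured members, Src-transgenic minus wild-type, after quantile normalization (circles with 95% intervals) and under 3 other settings (diamonds and triangles). Under median scaling 8 of the 9 diamonds lie between -0.77 and -0.47, and that of Trf lies at 0.08.

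For 6 of the 9 members the sign of the change turned under another scaling of the arrays, and for Apoa1, Apoc3 and Trf it did not. Among probes with a mean log2 signal of 6 to 8, the median unscaled difference was 0.58 higher in Src-transgenic livers, and it was 0.23 among those of 12 to 14. Among the 24 brightest probes, of 14.5 or more, it was -0.06. There the median signal was 28690, 28882 and 28739 on the Src-transgenic arrays, against 30872, 29789 and 29451 on the wild-type arrays. Those medians spanned 1.08-fold between the brightest and the dimmest array, where probes of 6 to 8 spanned 2.12-fold. The median of the brightest probes was thus nearly the same on every array, while that of dimmer probes followed the array's overall brightness. Single probes of 14.5 or more could differ further, such as Apoa2 by 1.64-fold and Rbp4 by 1.36-fold. The ranges of brightness were chosen after seeing the data.

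**Figure D4:**
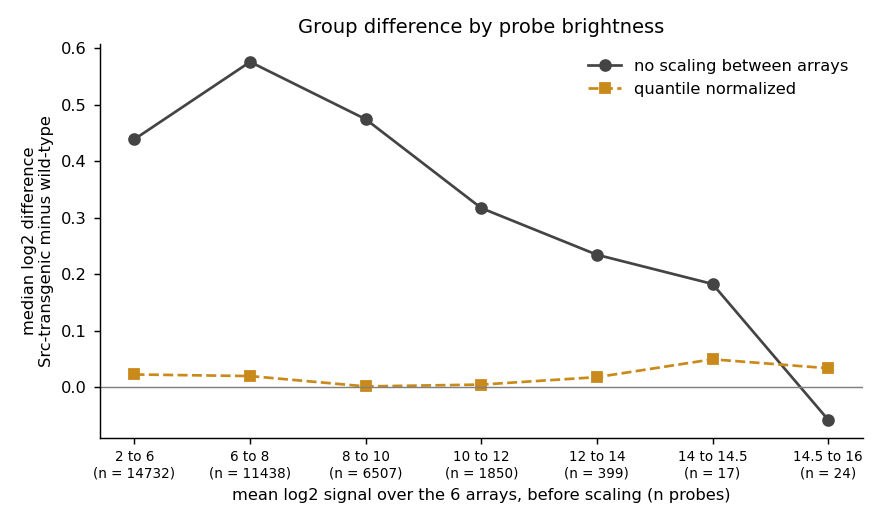
Median log2 difference, Src-transgenic minus wild-type, of probes in 7 ranges of mean log2 signal, before scaling (circles) and after quantile normalization (squares). Unscaled, it is 0.58 for probes of 6 to 8 and -0.06 for the 24 probes of 14.5 to 16, whereas the quantile-normalized medians lie between 0.00 and 0.05.

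Scaling each array by its median gave 8 of the 9 members a lower value in Src-transgenic livers, with a median log2 change of -0.58. Under it Alb was at -0.61, Ttr at -0.56, Apoa1 at -0.64, Apoa2 at -0.77, Apoc3 at -0.58, Ahsg at -0.65, Rbp4 at -0.48, Gc at -0.47 and Trf at 0.08. Of these, Apoa2 had an unadjusted p of 0.019 and an adjusted p of 0.72 in limma. The 39 features with a mean unscaled log2 signal of 14 or more, members among them, had a median of -0.50 under this scaling. Without any scaling the members lay between -0.21 (Apoa2) and 0.63 (Trf), with a median of -0.02. The deposited columns carry no saturation flag, so whether the brightest spots were at the end of the scanner's range was not tested. Quantile normalization gives the probe at each rank the same value on every array, so a member's normalized value reflects its rank among the brightest probes.

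The spread of the members from array to array is given on the deposited signal. Array medians of that signal spanned 1.08-fold for probes of 14.5 or more. They spanned 1.38-fold for the 17 probes with a mean log2 signal of 14 to 14.5, among them Apoc3 and Trf. Between the brightest and the dimmest array the signal differed 1.16-fold for each Ahsg probe, 1.17-fold for Ttr and Apoa1, 1.22-fold for Gc and 1.23-fold for Alb. The ratio was 1.34 for Apoc3, 1.36 for Rbp4, 1.64 for Apoa2 and 1.92 for Trf. The last 3 of these probes were also the 3 of 10 that fell into a patch on 1 array or more, against 17.9% of all mouse probes.

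The normalized pattern of Alb over the 6 arrays was set against that of 9612 other named genes above background on all arrays, by the root mean square difference of their deviations. The nearest were Garnl3 at 0.037, Maged2 at 0.038 and Wfdc5 at 0.045 log2 units. Among members Ttr was nearest at 0.079, in place 47, and Trf was farthest at 0.389, in place 7316. For Trf the nearest genes were Por at 0.066, Hoxa2 at 0.068 and Tmem50b at 0.069. The measure is not scaled for the size of a pattern. Alb deviated by only -0.07 to 0.19, so genes of small spread lie near it, and Trf deviated by -0.41 to 0.62. These are descriptions over 6 arrays that share brightness and rank, and shared regulation was not tested.

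Genes that work with the members were grouped in 6 lists. For comparison, 51.7% of all features had a log2 change above 0. At an unadjusted p under 0.05 in limma, 4.37% were higher and 2.72% lower. The groups stood apart for 10.1% higher and 5.9% lower. The other apolipoproteins (11 of 12 tested) had 7 log2 changes above 0, a median of 0.12 and 0 at an unadjusted p under 0.05. Under median scaling that median was -0.39. In this list the groups stood apart for 2 genes higher and 0 lower. Apoh, which binds phospholipid, had a log2 change of 0.24 ± 0.18 (SE, unadjusted p = 0.23), with groups that did not overlap, and was at -0.15 under median scaling. Apod, a lipocalin, read 162, 157 and 165 in Src-transgenic livers, against 46.2, 115 and 109 in wild-type livers, a log2 change of 0.39 ± 0.27 (SE, unadjusted p = 0.19). That change was 0.18 without wild-type replicate 1 and 0.59 without wild-type replicate 2. Apoa4, a satiety-linked apolipoprotein of triglyceride-rich particles, read 1655, 626 and 329 in Src-transgenic livers, against 248, 271 and 268 in wild-type livers. Its log2 change was 0.93 ± 0.66 (SE, unadjusted p = 0.20) and ran from 0.22 to 1.55 when 1 array was left out, being 0.22 without Src-transgenic replicate 1 and 1.55 without Src-transgenic replicate 4.

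Apoa1, Apoc3, Apoa4 and Apoa5 follow each other on chromosome 9, and these neighbours were looked at for that place. Their log2 changes were -0.03, -0.13, 0.93 and -0.06. Alb stands beside Afp and Afm on chromosome 5, where Gc also lies. Afp, the fetal albumin relative that liver tumours often express again, read 190, 238 and 195 in Src-transgenic livers, against 75.7, 129 and 215 in wild-type livers. These groups overlapped, with a log2 change of 0.12 ± 0.25 (SE, unadjusted p = 0.65). Ahsg stands beside Fetub and Hrg on chromosome 16, whose log2 changes were 0.14 ± 0.18 and 0.14 ± 0.20 (SE).

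The list of lipoprotein assembly, remodelling and uptake (22 of 25 tested) had 12 log2 changes above 0, a median of 0.03 and 1 gene at an unadjusted p under 0.05. Under median scaling that median was -0.19. In this list the groups stood apart for 0 genes higher and 2 lower. The gene at an unadjusted p under 0.05 was Lpl, the triglyceride lipase of capillaries, which adult hepatocytes express little. It read 507, 355 and 495 in Src-transgenic livers, against 182, 187 and 143 in wild-type livers. The signals stood apart before scaling and overlapped after it, with a log2 change of 0.87 ± 0.35 (SE, limma unadjusted p = 0.046, adjusted p = 0.69), which was 0.57 without wild-type replicate 4. Pltp, the phospholipid transfer protein, was at -0.58 ± 0.30 (SE, unadjusted p = 0.10) and at -0.30 without wild-type replicate 1. Its groups were apart after normalization and overlapped in the deposited signal.

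The other plasma carriers and binding proteins (18 of 20 tested) had 13 log2 changes above 0, a median of 0.14 and 0 at an unadjusted p under 0.05. Under median scaling that median was -0.17. In this list the groups stood apart for 3 genes higher and 0 lower. Selenop, the selenium carrier, was at 0.38 ± 0.20 (SE, unadjusted p = 0.11) and Hp, which binds haemoglobin, at 0.40 ± 0.22 (SE, unadjusted p = 0.12). For both the groups did not overlap, and under median scaling Selenop was at -0.00 and Hp at 0.07. After local correction they were at 0.15 and 0.16. Igfbp1, a binder of insulin-like growth factors, read 5531, 829 and 571 in Src-transgenic livers, against 459, 333 and 237 in wild-type livers. It lay in a patch on 3 arrays, and its log2 change of 1.65 ± 0.97 (SE, unadjusted p = 0.14) was 0.57 without Src-transgenic replicate 1 and 2.66 after local correction.

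The receptors and ligand-handling genes of the carriers (12 of 17 tested) had 5 log2 changes above 0, a median of -0.09 and 0 at an unadjusted p under 0.05. Under median scaling that median was -0.25. In this list the groups stood apart for 0 genes in either direction. Stra6l, a hepatic receptor for retinol-binding protein, was at -0.31 ± 0.25 (SE, unadjusted p = 0.26), at 0.24 after local correction, at -0.53 under median scaling, and at -0.49 and -0.15 without Src-transgenic replicates 1 and 4. Amn, a partner of the cubilin receptor, was not above background on any array.

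Of 20 tested liver transcription factors, 10 log2 changes were above 0, the median was -0.01 and 0 passed an unadjusted p under 0.05. Under median scaling that median was -0.03. In this list the groups stood apart for 4 genes higher and 3 lower, against 10.1% and 5.9% of all features. Prox1, a homeobox factor, was at 0.66 ± 0.28 (SE, unadjusted p = 0.055) and Foxa3, a forkhead factor, at 0.70 ± 0.31 (SE, unadjusted p = 0.060). After local correction Prox1 was at 0.12 and Foxa3 at 0.38, and without Src-transgenic replicate 3 Prox1 was at 0.43. Cebpa, which drives albumin transcription, read 1059, 1252 and 1253 in Src-transgenic livers, against 1541, 1111 and 1374 in wild-type livers. Its signals overlapped, whereas after normalization they were apart at -0.51 ± 0.22 (SE, unadjusted p = 0.059). After local correction Cebpa was at -0.58 (limma unadjusted p = 0.0096, adjusted p = 0.64). It was at -0.17 without scaling and at -0.34 without wild-type replicate 1. The factors whose letters were searched in the promoters included Foxa1 at -0.10 ± 0.26, Foxa2 at -0.22 ± 0.21 and Cebpb at 0.56 ± 0.29 (SE), none of them at an unadjusted p under 0.05. After local correction Foxa1 was at 0.12 and Foxa2 at -0.62.

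The positive acute phase genes (18 of 19 tested) had 17 log2 changes above 0 and a median of 0.25, the highest median of the 6 lists, which was 0.02 under median scaling. At an unadjusted p under 0.05, 4 were higher and 0 lower in Src-transgenic livers, against 4.37% and 2.72% of all features. Of the list, 0 passed adjustment. Fgl1, a fibrinogen-like liver protein, read 13271, 8761 and 21439 in Src-transgenic livers, against 4365, 5635 and 4675 in wild-type livers. All 3 Src-transgenic values stood above all 3 wild-type values, and the log2 change was 1.32 ± 0.31 (SE, limma unadjusted p = 0.0051, adjusted p = 0.69). Orm2, an acid glycoprotein, was at 1.22 ± 0.41 (SE, unadjusted p = 0.023) with a patch on 2 arrays and at 0.86 after local correction. Itih4, of the inter-alpha-trypsin inhibitor family, was at 0.62 ± 0.21 (SE, unadjusted p = 0.024), and Saa2, a serum amyloid A, at 0.91 ± 0.37 (SE, unadjusted p = 0.047) and at 0.58 after local correction. For these 3 genes too the groups did not overlap. Over the list the groups stood apart for 5 of 18 genes higher and 0 lower, against 10.1% and 5.9% of all features.

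**Figure D5:**
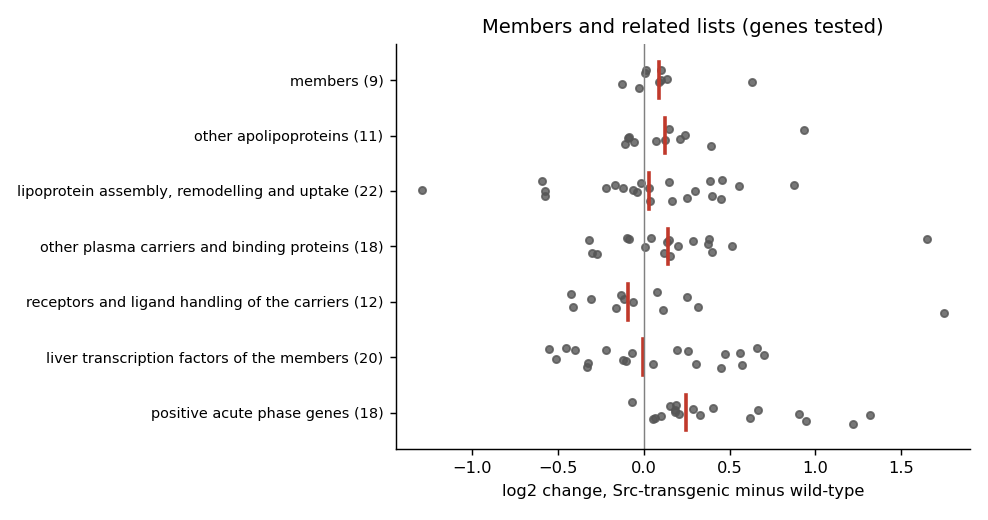
Log2 change, Src-transgenic minus wild-type, of each tested gene of the members and of 6 related lists, with 1 point for each gene and a bar at the list's median. After quantile normalization, as drawn, the medians run from -0.09 for the receptors to 0.25 for the positive acute phase genes, with the members at 0.09. Under median scaling, not drawn, they run from -0.58 for the members to 0.02 for the positive acute phase genes. Of these genes, 0 passed an adjusted p under 0.05.

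Markers of the other cells of liver were read on the same arrays. Of 11 markers of T, B and NK cells, 9 log2 changes were below 0 and 2 above, up to 1.01 for Cd3e. Their normalized mean log2 level was 6.061 to 6.483 in Src-transgenic and 6.476 to 6.571 in wild-type livers, so the ranges overlapped. Before scaling, their summed signal went the other way. It was 1955, 2654 and 2111 in Src-transgenic livers, against 1102, 1720 and 1814 in wild-type livers. Of the 11 markers, 2 were lower at an unadjusted p under 0.05 in limma, against 2.72% of all features. On all 6 arrays 7 of them lay above background, and Klrb1c was not above it on any array. The 7 Kupffer cell and macrophage markers tested had a mean of 9.38 to 10.41 in Src-transgenic and 9.54 to 9.85 in wild-type livers. Log2 changes were below 0 for 7 of 8 endothelial, 8 of 10 stellate cell and fibroblast, 4 of 6 cholangiocyte, 4 of 7 neutrophil and 2 of 4 erythroid markers, with 0 of them at an unadjusted p under 0.05. The part of these cells in the members' values was not tested.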

How the data were processed

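Liver RNA was amplified to biotin-labelled cRNA and read on 1-colour arrays, per the labels' protocols. No source used here names the scanner or its software. Per the file headers, the deposited intensity was linear and already background-corrected. The authors' second intensity column was that signal divided by 1 constant per array, and their value table held the same numbers for all 34967 mouse probes within 1e-06.

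Each array's signals below a floor of 4.72 to 5.75, its 1st percentile of positive values, were raised to that floor, and log2 values were quantile normalized. The 620 control spots were left out and dim probes were kept. Accessions without versions named 14760 probes to 13968 genes through RefSeq of GRCm38.p6. A gene with several probes stands as the brightest. A probe was above background when it passed a limit set from 570 control spots, their median plus 3 times the scaled absolute deviation (33.0 to 50.6), which held for 62.6% to 71.7% of the probes on an array. The comparison used limma (version 3.58.1, R 4.3.3) with two-sided moderated tests, and p-values were adjusted over all 34175 features by Benjamini-Hochberg. Only the limma fit was tested on simulated data, drawn as normalized values with planted changes. The earlier steps were not simulated. The SE is limma's moderated one.

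The text names all members, the 3 genes of smallest p in each related list, the 3 nearest patterns of Alb and Trf, and the label checks, except a few genes that are not reported here. Saa2, Apoa5, Afp, Fetub, Hrg, Foxa1, Foxa2 and Cebpb were added for their place, role or values. The members and lists were chosen with earlier results of these data known. The labels number the samples as separate mice. The number of arrays limits precision. Alternatives changed scaling, offset, filter, spread model, weights, local correction, probe choice, replicate block and left-out arrays. Figures were drawn with matplotlib 3.10.9.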

Additional observations from a re-analysis of the deposited data

How the results depend on the processing

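In limma, 0 members passed an adjusted p under 0.05 under any of 18 alternatives, but signs near 0 turned with the scaling, and the cause was not tested. Under median scaling the reversed members were Alb (-0.61), Ttr (-0.56), Apoa2 (-0.77), Ahsg (-0.65), Rbp4 (-0.48) and Gc (-0.47), and of the related genes Apoh (-0.15) and Selenop (-0.00043). The authors' value table also divides each array by 1 constant, so it is no independent check of median scaling. It gave the same genes at -0.609, -0.560, -0.767, -0.647, -0.479, -0.467, -0.147 and -3.2e-05, in that order. The members' median was -0.58 and -0.575 in these settings, with 1 member above 0 in each, and the median of all features was -0.078 and -0.077. Both settings gave 943 features higher at an unadjusted p under 0.05, against 1312 and 1309 lower, where the fit as reported gave 1493 higher and 931 lower.

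Cyclic loess reversed Alb (-0.11), Ttr (-0.063), Apoa2 (-0.25) and Ahsg (-0.15), with a median of -0.11 and 3 members above 0. Without scaling, added after seeing the data, Alb (-0.052), Ttr (-0.0033), Apoa2 (-0.21), Ahsg (-0.090), Amn (0.080) and Stra6l (0.025) reversed. The members' median was then -0.018 with 3 above 0, the median of all features was 0.48, and 7702 features were higher against 163 lower.

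Local correction reversed Ttr (-0.033), Apoa1 (0.0075), Apoa2 (-0.19), Apoc3 (0.037), Trf (-0.026) and Stra6l (0.24), and 1430 features were lower. Correction from bright neighbours reversed Apoa2 (-0.18) and Apoc3 (0.011), with a members' median of 0.016. Array weights reversed Apoa2 (-0.013) and Ahsg (-0.015), and the mean of its probes reversed Ahsg (-0.034). Restricting to features above background on all arrays tested fewer features and left 1039 higher and 535 lower.

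The replicate block reversed Rbp4 (-0.029), left Trf at 0.65 (unadjusted p = 0.16) and gave 679 features higher. The groups share 2 replicate numbers, which the labels do not tie to a shared source, and same-numbered arrays correlated at 0.06 in their deviations for both numbers. Under array weights, both local corrections and the block, 0 members kept an unadjusted p under 0.05. Trf kept one in 7 of 18 alternatives, and its adjusted p was 0.20 to 0.97 over them.

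Leaving out 1 array at a time gave Apoa1 -0.087 to 0.041, Apoa2 -0.10 to 0.14, Ahsg -0.022 to 0.049 and Rbp4 -0.015 to 0.19. The members' median ran from 0.00083 (without wild-type replicate 1) to 0.10, the number above 0 from 5 to 7, and the number at an unadjusted p under 0.05 from 0 to 1. Over all features 953 to 1560 were higher and 641 to 1331 lower, the lowest number higher being without Src-transgenic replicate 4 and the next, 993, without wild-type replicate 2. From 0 to 1 features passed adjustment, none of them a member: the unnamed probes GE115078 without Src-transgenic replicate 4 (log2 change 6.32, adjusted p = 0.031) and GE1410659 without wild-type replicate 1 (log2 change -5.45, adjusted p = 0.040). Of 322 values of 18 related genes, 7 reversed.

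With 3 arrays in each group, the members' values have the wide intervals given above. Signal over background did not limit the members, which lay above it on all 6 arrays. Array brightness moved with the groups, and 3 member probes lay in patches. The part of array brightness in the members' values was not tested.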
